A study of Rattus norvegicus with 10 samples.

Results

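Isolated regions were regions of a methyl-capture count matrix that lay far from any other region of the matrix on a rat chromosome. The authors kept regions where a comparison of any 2 libraries found a difference, and a gap is therefore a stretch without such regions and may still hold captured methylated DNA. A region was counted as isolated when the gap to the end of the previous region and the gap to the start of the next one were both at least 15000 bp. The rule was applied to the 20 autosomes, and the first and last region of each chromosome were left out. It used position alone, with no tag count and no comparison between rats. Of the 716492 regions in the matrix, 3748 were isolated, or 0.523%. Across the 709389 autosomal regions with a neighbour on both sides, the smaller of the flanking gaps had a median of 537 bp.

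The data came from a study of traumatic brain injury (TBI), a cause of acquired epilepsy. Adult male Sprague-Dawley rats, an outbred strain obtained from Harlan, were injured by lateral fluid percussion on the left side of the skull or were sham operated there. In the injury, a pressure pulse of fluid strikes the intact dura through an opening in the skull. Sham rats had the same anesthesia and surgery without the pulse. There were 5 sham rats and 5 TBI rats, each with a library of its own, and all 10 libraries were used here. The study's methods list fewer control rats for this assay than were deposited and do not say which was left out. None of the agents or operations differed between the groups apart from the pulse. Tissue holding CA3 and the dentate gyrus was taken from the left hippocampus 3 months after surgery; the labels call it dorsal hippocampus. The TBI rats were not monitored by EEG, per the study's methods. The tissue is a mixture of neurons and glia, and its cell types cannot be checked with this assay, since captured DNA carries no marker transcripts.

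In mammalian DNA, methyl groups are placed mainly on the cytosine of CpG sites, and most CpG sites of the genome carry them. CpG sites are unevenly spread: they are dense in gene-rich, GC-rich sequence and sparse in long AT-rich stretches that hold few genes. A methyl-binding protein captures a fragment more readily the more methylated CpG sites it carries, so that captured DNA gathers where such sites lie close together. The number of read tags in a region therefore follows CpG density, copy number and the efficiency of capture as well as methylation. Tags map to the RN4 assembly, and no sequence or gene annotation of that assembly was used here, so that isolated regions are identified by position. Whether the gaps hold unfinished stretches of the assembly was not tested.

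Libraries held between 13597924 and 21672940 tags. The library of sham rat 5 stood apart from the other 9. Across the isolated regions that were tested, the mean correlation of its log2 levels with those of the other rats was 0.681, against 0.790 to 0.847 for the others. The fold changes, shares and calls that it moved most are also given without it.

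Isolated regions were short. Their median length was 429 bp, with an interquartile range from 330 to 539 bp, while other autosomal regions had a median of 576 bp with quartiles at 428 and 828 bp. Regions under 500 bp from a neighbour had a median of 616 bp. A length of 1000 bp or more was reached by 75 isolated regions, or 2.00%, compared with 17.0% of other autosomal regions. The range ran from 171 to 8778 bp.

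Isolated regions also held fewer tags. Summed over the 10 rats, the median was 66 tags with quartiles at 26.75 and 124, against 117 tags in other regions with quartiles at 49 and 285. Per kilobase the medians were 172 and 222 tags. At least 1000 tags were found in 21 isolated regions (0.560%) and in 4.06% of other regions. No tag in any rat was found for 19 isolated regions, or 0.507%, against 0.150% of the others.

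Most of this difference arose over short gaps. Median length fell with the smaller flanking gap from 616 bp under 500 bp to 503 bp between 2000 and 4999 bp and 442 bp between 10000 and 14999 bp. Beyond the limit of the rule it was 430 bp for gaps from 15000 to 19999 bp, 430.5 bp for gaps from 20000 to 49999 bp, and 379 bp for the 101 regions with gaps of 50000 bp or more. The median tag sum fell from 141 to 64 as the gap widened to between 5000 and 9999 bp, and was 62 to 71 at every wider gap. In tag content the isolated regions thus did not stand apart from regions 5000 to 14999 bp from a neighbour. Within the isolated regions, tags per kilobase were higher at wider gaps, with medians of 162, 177 and 211 in these same bins of gap.

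**Figure D1:**
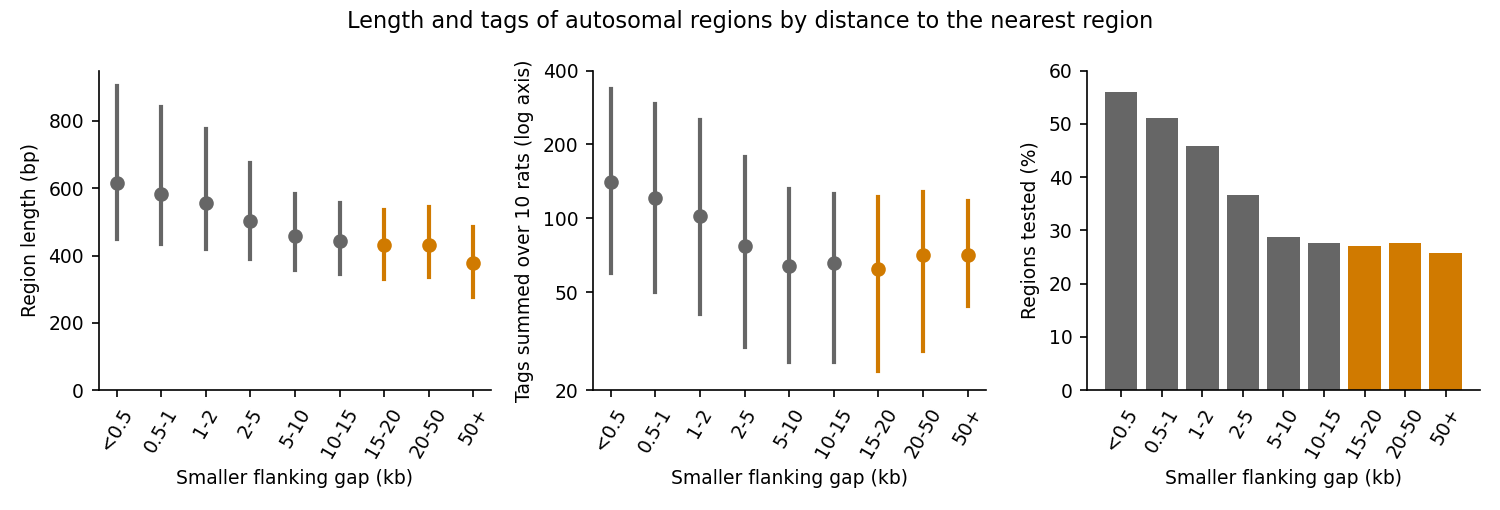
Length (bp, left), tags summed over 10 rats (log axis, middle) and percent of regions that were tested (right) against the smaller flanking gap in kb. Points are medians, lines span the quartiles, and orange marks isolated regions. The medians fall from 616 bp and 141 tags at the smallest gaps to 442 bp and 66 tags just short of the rule, with little further change in tags beyond it.

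The testing of single regions required at least 117 tags summed over rats, the 50th percentile of the matrix. This left 1024 isolated regions, or 27.3%, and removed 2724. Among other autosomal regions 50.2% were kept. A rat had a median of 20 tags in a tested isolated region and 3 in an untested one, while the median for any tested region of the matrix was 28. At 191 tags and 570.5 bp the tested isolated regions were smaller than the other tested regions (284 tags and 787 bp), while their tags per kilobase were close, 360 against 379.

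The shorter length held at matched tag sums. Between 117 and 199 tags the isolated regions had a median length of 505 bp and other regions 587 bp. Between 200 and 399 tags the medians were 635 and 743 bp, and at 400 tags or more they were 917.5 and 1208 bp. In the last of these classes, 126 isolated regions also varied more between rats of the same group, with a median SD of 0.33 on the log2 scale against 0.26 in other regions. In the lowest class the SD values were 0.34 and 0.36, so that the order was not the same at every depth.

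The smaller flanking gap of the isolated regions had a median of 19749.5 bp. It was at least 20000 bp in 1813 regions, at least 50000 bp in 101 and at least 100000 bp in 21. Many isolated regions were neighbours of each other: 1719, or 45.9%, had another isolated region directly before or after them. The other 2029 stood alone. Runs of at least 3 successive isolated regions numbered 194, and the longest held 8.

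The most isolated region of all was chr17:67729122-67729397, with gaps of 412673 and 305368 bp. It had from 1 tag in sham rat 2 to 12 in sham rat 1, 51 in all, and was not tested. The next by gap were chr15:20724507-20725100, whose smaller gap was 265893 bp, chr15:28516426-28516901 with 192360 bp and chr7:6228267-6228756 with 186467 bp. They held 164, 95 and 143 tags. Tags were thus found in every rat in each of these 4 regions, with no region deeper than 27 tags in a single rat. Groups overlapped in all 4. The chr15:20724507-20725100 region was measured at 0.966 ± 0.113 CPM in sham rats and at 1.08 ± 0.314 CPM after TBI (SD, n = 5 each). CPM are tag counts per 1000000 tags of the library, scaled by TMM.

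The rule itself has no natural limit in these data. The members just inside it were chr3:32302897-32303511 and chr13:61415200-61415567, each with a gap of 15003 bp and with 34 and 14 tags. All 14 tags of the second were in sham rat 5. The regions just outside it were chr7:109410177-109411009 and chr2:109995608-109996235, with gaps of 14998 and 14994 bp and with 401 and 168 tags.

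Isolated regions were unevenly spread over chromosomes. Chromosome 2 held 559 of them, 0.936% of its regions, and chromosome 13 held 257, or 0.903%. Chromosomes 1, 4 and 5 held 504, 339 and 334. At the other end were chromosome 10 with 40 (0.103%), chromosome 12 with 21 (0.118%) and chromosome 19 with 21 (0.102%). The share on chromosome 2 was about that of chromosome 13 and several times that of chromosomes 10, 12 and 19. The 4 chromosomes with the most isolated regions held 46.3% of them and 31.7% of all autosomal regions.

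The share of isolated regions followed how densely a chromosome was covered by regions of the matrix. Chromosome 2 had 231 regions per Mb, the lowest of the 20, whereas chromosomes 10, 12 and 19 had 352, 379 and 349. Across the 20 chromosomes, Pearson's r between regions per Mb and the percent isolated was -0.89 and Spearman's rho was -0.95. Without chromosome 2, r was -0.87. Both measures come from the same positions, and a sparser chromosome has wider gaps by construction, so that the relation is given as a description.

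**Figure D2:**
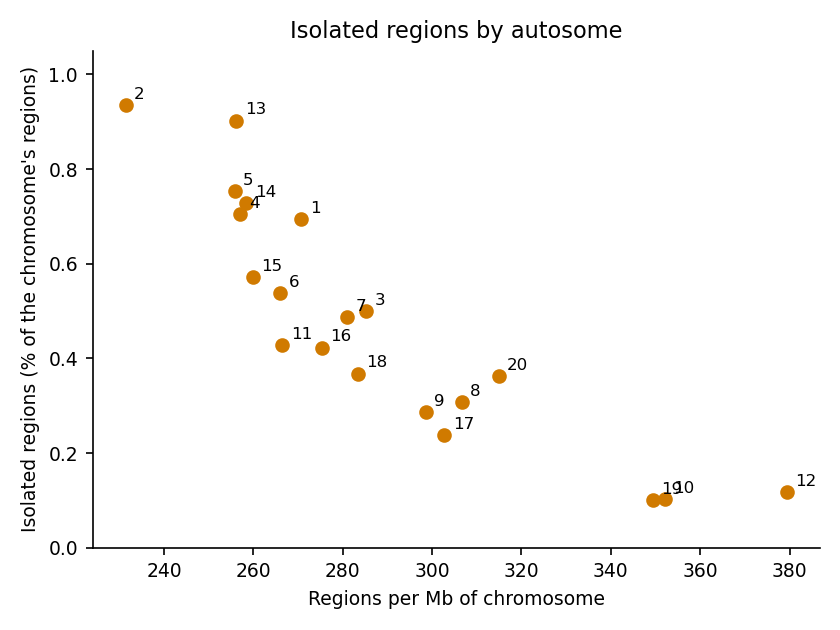
Percent of each autosome's regions that were isolated against its number of regions per Mb, with 1 point per chromosome and its number beside it. Chromosomes 2 and 13 lie highest, at 0.936 and 0.903%, and chromosomes 10, 12 and 19, with 349 to 379 regions per Mb, lie between 0.102 and 0.118%.

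A few isolated regions held very many tags. The strongest was chr5:24497072-24497711, 639 bp long with gaps of 15286 and 22821 bp, which held 31206 tags. It was followed by chr13:30743849-30744820 with 18592 tags and chr1:63765998-63766696 with 14478. Together they held 64276 tags, 13.7% of the 467465 tags in isolated regions, while the fourth, chr1:31989030-31997808, held 6398. In the strongest region sham rat 4 alone had 5021 tags, more than 1 read per start position and strand would give. Whether stacked duplicate reads add to such counts was not tested.

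Levels at the chr5:24497072-24497711 region were 274, 129, 239, 275 and 100.2 CPM in sham rats 1 to 5. In TBI rats 1 to 5 they were 230.3, 144, 196, 110.2 and 229.5 CPM. High and low rats occurred in both groups, and the groups overlapped widely. The log2 fold change, TBI against sham, was -0.16 ± 0.26 (SE), with an unadjusted p = 0.547 from edgeR's quasi-likelihood test. It was -0.33 without sham rat 5, the lowest rat (unadjusted p = 0.0692). Leaving out other single rats gave values from -0.29 to -0.03.

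At chr13:30743849-30744820, sham rats 1 to 5 had 141, 123, 133, 126 and 88.9 CPM. TBI rats 1 to 5 had 142, 126, 105, 108 and 84.9 CPM. The groups overlapped over most of their range, and the log2 fold change was -0.11 ± 0.17 (SE, unadjusted p = 0.523). It was -0.21 without sham rat 5 (unadjusted p = 0.119), without TBI rat 1 it was -0.20, and without TBI rat 5 it was -0.02.

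At chr1:63765998-63766696, sham rats 1 to 5 had 148, 86.3, 78.2, 76.3 and 51.9 CPM. TBI rats 1 to 5 had 162, 51.8, 70.5, 45.6 and 152 CPM. Sham rat 1, TBI rat 1 and TBI rat 5 were between 148 and 162 CPM and the other 7 rats were at 86.3 CPM or less, so that high and low rats occurred in both groups. The log2 fold change was 0.13 ± 0.32 (SE, unadjusted p = 0.685), and its sign turned on single rats. With sham rat 5 left out it was -0.01 (unadjusted p = 0.982).

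The longest isolated region was the fourth strongest, chr1:31989030-31997808, of 8778 bp. It had 44.8, 39.3, 44.0, 50.6 and 21.8 CPM in sham rats 1 to 5, and 41.4, 46.5, 41.8, 39.0 and 30.4 CPM in TBI rats 1 to 5. Sham rat 5 was lowest, and the groups overlapped. The next longest were chr14:814933-817758 (2825 bp) and chr18:30010851-30013534 (2683 bp). They were among the steadiest of the regions named, with a coefficient of variation over all 10 rats of 10.9% and 10.2%. At chr14:814933-817758 sham rats had 15.7 ± 1.89 CPM and TBI rats 17.2 ± 1.50 CPM (SD, n = 5 each). At chr18:30010851-30013534 it was 12.7 ± 1.46 and 12.2 ± 1.15 CPM (SD, n = 5 each). None of these 3 differed between groups by more than the spread between rats (unadjusted p = 0.955, 0.359 and 0.700). Their log2 fold changes without sham rat 5 were -0.17, 0.06 and -0.10 (unadjusted p = 0.187, 0.607 and 0.404).

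Isolated regions held 0.263% of the tags in autosomal regions with neighbours, although they made up 0.528% of those regions. As a percent of each library, their share was 0.273, 0.258, 0.274, 0.273 and 0.261% in sham rats 1 to 5. In TBI rats 1 to 5 it was 0.267, 0.245, 0.256, 0.245 and 0.261%. The groups overlapped, with 3 sham rats above every TBI rat and 3 TBI rats below every sham rat. Sham rats had a mean of 0.268 ± 0.00778% and TBI rats one of 0.255 ± 0.00953% (SD, n = 5 each), a ratio of 0.952. Counting error alone, as a 95% Wilson interval, reached ±0.00277 percentage points.

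The 3 strongest regions added most of the variation among TBI rats. With those 3 left out, a choice made after seeing the data, the share was 0.223, 0.227, 0.233, 0.230 and 0.241% in sham rats and 0.218, 0.216, 0.222, 0.221 and 0.218% in TBI rats. The groups then did not overlap, with means of 0.231 ± 0.00701% and 0.219 ± 0.00246% (SD, n = 5 each) and a ratio of 0.948. The gap between the lowest sham rat and the highest TBI rat was smaller than the counting error. Without sham rat 5 as well, the ratio was 0.959 and the groups again did not overlap. When all regions of 1000 tags or more were left out, the ratio was 0.942 and the groups overlapped, from 0.199 to 0.230% in sham rats and from 0.194 to 0.201% in TBI rats. This ratio was 0.964 without sham rat 5, and the groups still overlapped. For tested isolated regions alone, the share was taken of the tags in tested autosomal regions and not of the library. The sham and TBI means were then 0.211 ± 0.0311% and 0.209 ± 0.00833% (SD, n = 5 each). Sham rat 5 was lowest of all rats at 0.161%. Without it the sham mean was 0.223 ± 0.0157% and the ratio 0.937, and the groups overlapped. Shares of regions with gaps from 5000 to 9999 bp and from 10000 to 14999 bp had ratios of 0.961 and 0.970. Counting only regions with fewer tags than the third strongest isolated region, both ratios were 0.949. Without sham rat 5 as well they were 0.978 and 0.976, and the groups overlapped each time. A lower mean share in TBI rats was thus not particular to isolated regions. As the share is a score over regions grouped by the rule, it carries no p-value.

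**Figure D3:**
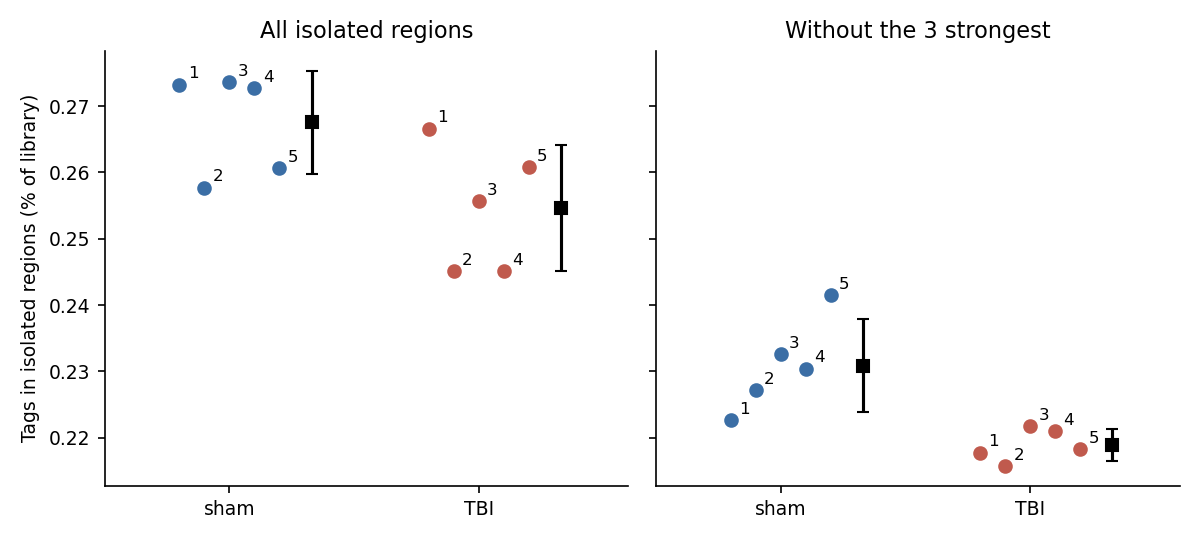
Tags in isolated regions as a percent of each library, for all 3748 regions (left) and without the 3 strongest (right), on an axis that does not start at 0. Circles are rats with their numbers, squares are group means and bars are SD (n = 5). Sham rats run from 0.258 to 0.274% and TBI rats from 0.245 to 0.267% on the left, and from 0.223 to 0.241% and 0.216 to 0.222% on the right.

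The presence of tags depended on the library. All 10 rats had tags in 2247 isolated regions (60.0%), against 73.5% of other autosomal regions. At least 5 rats had none in 730 (19.5%), against 10.4%. Sham rat 5 had no tags in 1.87% of isolated regions, while the other 9 rats had none in 13.4 to 27.2%. Most isolated regions without tags in a rat were shallow, since at most 0.0977% of tested ones were at 0 in any rat.

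Sham rat 5 had the highest CPM of the 10 rats in 40.6% of isolated regions. The next highest share was 9.84%, that of sham rat 2. Across other autosomal regions sham rat 5 was highest in 40.0%, a value close to that of isolated regions. Tested and untested isolated regions behaved in opposite ways: sham rat 5 was highest in 54.0% of the untested ones and in 5.08% of the tested ones. Other autosomal regions were split in the same direction, at 62.8% of untested and 17.6% of tested ones. Sham rat 5 was the lowest of the 10 rats in 38.7% of tested isolated regions, against 23.7% of other tested autosomal regions. No other rat was lowest in more than 9.47% of tested isolated regions.

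There were 174 isolated regions with tags in a single rat, and in 168 of them that rat was sham rat 5. Among other autosomal regions with tags in a single rat, it was sham rat 5 in 11903 of 12348, a similar share. The deepest isolated ones were chr13:4936357-4936903 with 31 tags, chr9:65530274-65530631 with 28, chr13:2464749-2465240 with 22 and chr13:27640859-27641153 with 20, all in sham rat 5. The chr13:61415200-61415567 region at the limit of the rule was another of the 168. The other 9 libraries had 0 tags in each of the 4 deepest, where 3 tags a library is the most that a count of 0 allows for. They did not enter the test of groups. The peak calling compared libraries in pairs, and a region found in any pair was kept in the matrix, including one with tags in a single library.

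To ask whether isolated regions were methylated to a different degree after TBI, the counts of all 358249 tested regions were fitted together, and the 1024 isolated regions were read from that fit. At the unadjusted p under 0.01 used in the study, 3 isolated regions were called (0.293%), 2 higher and 1 lower in TBI. The share called among all tested regions was 0.266%, so that the isolated regions were called about as often as the rest. At an unadjusted p under 0.05, 25 passed (2.44%), 7 higher and 18 lower in TBI, with 2.45% over all regions. After Benjamini-Hochberg adjustment over all tested regions none passed 0.05 with edgeR, and the smallest adjusted p was 1.00. The Wald test of DESeq2 also gave 0, with 22 at an unadjusted p under 0.05.

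Fold changes were small. The median log2 fold change, TBI against sham, was -0.02 over isolated regions and -0.02 over all tested regions. The interquartile range of the isolated regions ran from -0.19 to 0.15, and their median SE was 0.31, so that most fold changes were smaller than their own error. A change of at least 1 on the log2 scale was seen in 2 (0.195%, against 0.539% of all). These were chr2:106008402-106008896 and chr3:29723760-29725579. The second was chosen after its values were seen. Its log2 fold change of -1.54 rested on sham rat 5 at 4.54 CPM, with the other 9 rats between 0.0722 and 0.932 CPM.

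The region with the smallest p was chr17:50524542-50525192, 650 bp long. Sham rats 1 to 5 had 1.39, 0.849, 1.21, 1.32 and 0.949 CPM. TBI rats 1 to 5 had 1.50, 1.52, 1.92, 2.52 and 2.07 CPM. Every TBI rat was above every sham rat. The log2 fold change was 0.74 ± 0.25 (SE), with an unadjusted p = 0.00725 and an adjusted p of 1.00 by edgeR's quasi-likelihood test. It stayed under an unadjusted p of 0.01 in 4 of 10 fits that left out a rat. Without sham rat 2, 3 or 5, or TBI rat 3, 4 or 5, the p-values ran from 0.0112 to 0.0313, with the highest without TBI rat 4.

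At chr8:76496864-76497535, a region of 671 bp, sham rats 1 to 5 had 0.491, 0.772, 1.16, 0.604 and 0.678 CPM. TBI rats 1 to 5 had 1.18, 1.30, 1.66, 1.49 and 1.19 CPM. The groups did not overlap, although sham rat 3 nearly reached the lowest TBI rat. Its log2 fold change was 0.86 ± 0.30 (SE, unadjusted p = 0.00955), and the values rested on 6 to 33 tags per rat. The call was kept when sham rat 3 was left out and lost when any other rat was, with p-values from 0.0113 to 0.0307. It was also lost with the Wald test of DESeq2 (unadjusted p = 0.0103).

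The called region that was lower in TBI was chr17:96863859-96864434, of 575 bp. Sham rats 1 to 5 had 1.72, 2.86, 2.01, 3.18 and 1.49 CPM, and TBI rats 1 to 5 had 1.10, 1.59, 1.31, 1.66 and 1.24 CPM. Sham rat 5 lay within the range of the TBI rats, so that the groups overlapped. The log2 fold change was -0.71 ± 0.25 (SE, unadjusted p = 0.00999), just inside the threshold. The call was kept without sham rat 1 or sham rat 5 and lost without any other rat. Without sham rat 5 the log2 fold change was -0.82 (unadjusted p = 0.00136), and without sham rat 4 it was -0.53 (unadjusted p = 0.0523). It was also lost with the Wald test of DESeq2 (unadjusted p = 0.0111), with total tags alone (0.0111) and with no filter (0.0225).

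Of the other isolated regions with the smallest p, those with higher levels in TBI were chr2:106008402-106008896, chr13:58683502-58684080, chr5:10319981-10320518 and chr5:93347047-93348116. Their unadjusted p-values ran from 0.0142 to 0.0365 and the groups overlapped in each. At chr2:106008402-106008896, sham rats 1 to 5 had 0.164, 0.695, 0.317, 0.274 and 0.949 CPM. TBI rats 1 to 5 had 1.73, 0.505, 1.21, 0.860 and 1.14 CPM. Sham rats 2 and 5 overlapped the TBI rats. Its log2 fold change was 1.18 ± 0.44 (SE), and without sham rat 5 it was 1.59 with an unadjusted p = 0.000629, the smallest among isolated regions in that fit.

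Those with lower levels in TBI were chr15:51124777-51125442, chr1:237799289-237799945, chr16:12322004-12322737, chr1:106109045-106109779 and chr1:71229420-71230109, with unadjusted p-values from 0.0115 to 0.0303. The steadiest was chr15:51124777-51125442, with 2.54, 3.16, 2.96, 2.63 and 3.05 CPM in sham rats 1 to 5 and 1.97, 2.02, 2.12, 1.83 and 2.23 CPM in TBI rats 1 to 5. All TBI rats were below all sham rats, at a log2 fold change of -0.49 ± 0.18 (SE, unadjusted p = 0.0115). At chr1:106109045-106109779 the groups also did not overlap: sham rats ran from 1.47 to 2.25 CPM and TBI rats from 0.867 to 1.41 CPM. At chr16:12322004-12322737 TBI rats were tightly grouped, from 0.473 to 0.621 CPM, while sham rats ran from 0.439 to 1.90 CPM, so that the difference lay in 4 of 5 sham rats. The highest was sham rat 5, and without it this region did not pass the tag filter and has no fold change.

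**Figure D4:**
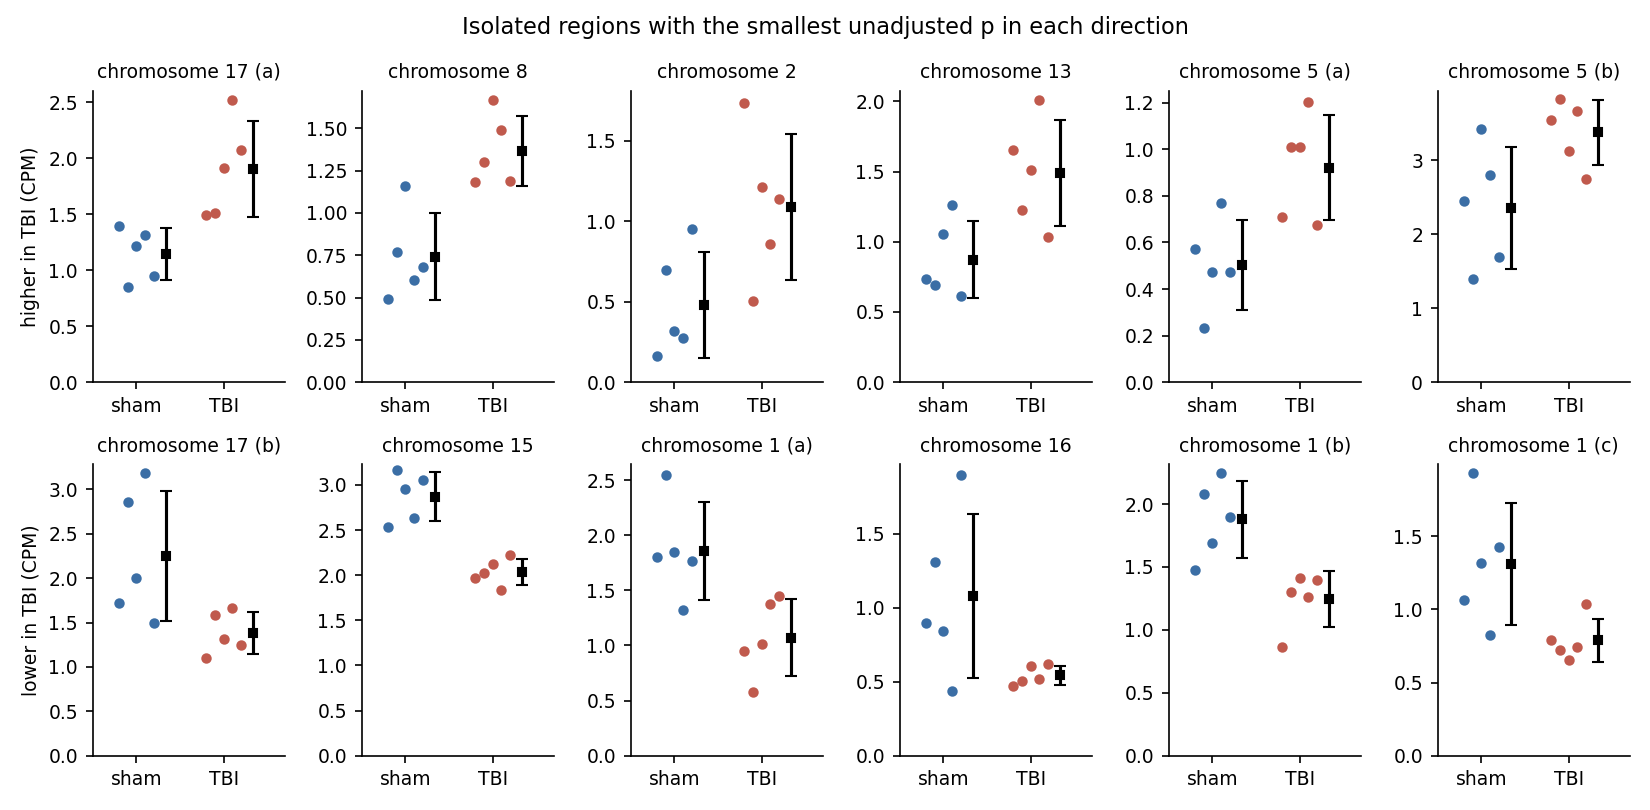
CPM in each rat for the 6 tested isolated regions with the smallest unadjusted p in each direction, higher in TBI in the top row and lower in the bottom row, each panel with its own axis from 0. Circles are rats, squares are group means and bars are SD (n = 5). The groups do not overlap in the first 2 panels of the top row, nor in the lower panels for chromosome 15 and chromosome 1 (b).

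Complete separation of the groups occurred in 6 isolated regions (0.586%), 3 higher and 3 lower in TBI, while 0.502% of all tested regions were separated. Besides the 4 already named, these were chr4:42214256-42214999, higher in TBI with a log2 fold change of 0.39 (unadjusted p = 0.109), and chr2:17195027-17195377, lower at -0.66 (unadjusted p = 0.0368). This pair was chosen after its values were seen.

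More isolated regions were called when sham rat 5 was left out. Without it, 13 of 1111 isolated regions were called at an unadjusted p under 0.01 (1.17%), against 0.792% of all tested regions. Of these, 1 was higher and 12 were lower in TBI. The lower ones made up 1.08% of the isolated regions tested, against 0.396% of all tested regions. At an unadjusted p under 0.05 there were 14 higher and 53 lower, where the fit with all rats gave 7 and 18. The 53 lower ones made up 4.77%, against 2.33% of all. Regions with gaps from 5000 to 14999 bp also leaned to lower calls in this fit. Of 7855 tested, 70 were called (0.891%), 21 higher and 49 lower in TBI. At an unadjusted p under 0.05 there were 94 higher and 270 lower. No isolated region passed an adjusted p of 0.05 by edgeR's quasi-likelihood test, where their smallest adjusted p was 0.996. Of the 13 isolated regions called, 1 was among the 3 called with all rats.

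The 12 regions called lower in TBI in this fit had log2 fold changes from -1.06 to -0.41 and lay on 8 chromosomes. They included chr5:84930555-84931289, with 61, 54, 77 and 104 tags in sham rats 1 to 4 and 54, 51, 57, 49 and 51 tags in TBI rats 1 to 5. It had 28 tags in sham rat 5, below every other rat in tags. In all 12, sham rat 5 had the lowest CPM of the sham rats, and in 7 it was the lowest of all 10 rats. Leaving out a sham rat that is low favours such calls, so that this low level follows in part from how the 12 were chosen. The chr5:84930555-84931289 region was chosen after its values were seen.

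The median log2 fold change over isolated regions was -0.09 without sham rat 5, with 38.3% of regions above 0. Over all tested regions it was -0.00, with 49.5% above 0. The median moved with the width of the gap, from 0.00 under 500 bp to -0.03 between 2000 and 4999 bp, -0.06 between 5000 and 14999 bp, -0.08 between 15000 and 19999 bp and -0.10 at 20000 bp or more. With all rats it lay between -0.03 and -0.02 in every bin. The shift was also present at matched tag sums. Without sham rat 5 the medians of isolated regions were -0.05, -0.12 and -0.13 in the classes of 117 to 199, 200 to 399 and 400 or more tags, against 0.06, 0.02 and -0.04 in other regions.

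Single rats showed how far this median was a difference between groups. For each rat, the median deviation of isolated regions from their mean over rats was set against that of other tested regions. Without sham rat 5 the isolated regions stood at 0.04, -0.08, 0.07 and 0.10 on the log2 scale relative to other regions in sham rats 1 to 4, and at -0.04, 0.01, 0.00, -0.02 and -0.07 in TBI rats 1 to 5. Sham rat 2 was below every TBI rat, so that the groups overlapped. With all rats the deviation was -0.29 in sham rat 5, and sham rats had a mean of -0.01 ± 0.17 and TBI rats one of 0.00 ± 0.03 (SD, n = 5 each). The difference between the groups was smaller than the spread between sham rats.

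**Figure D5:**
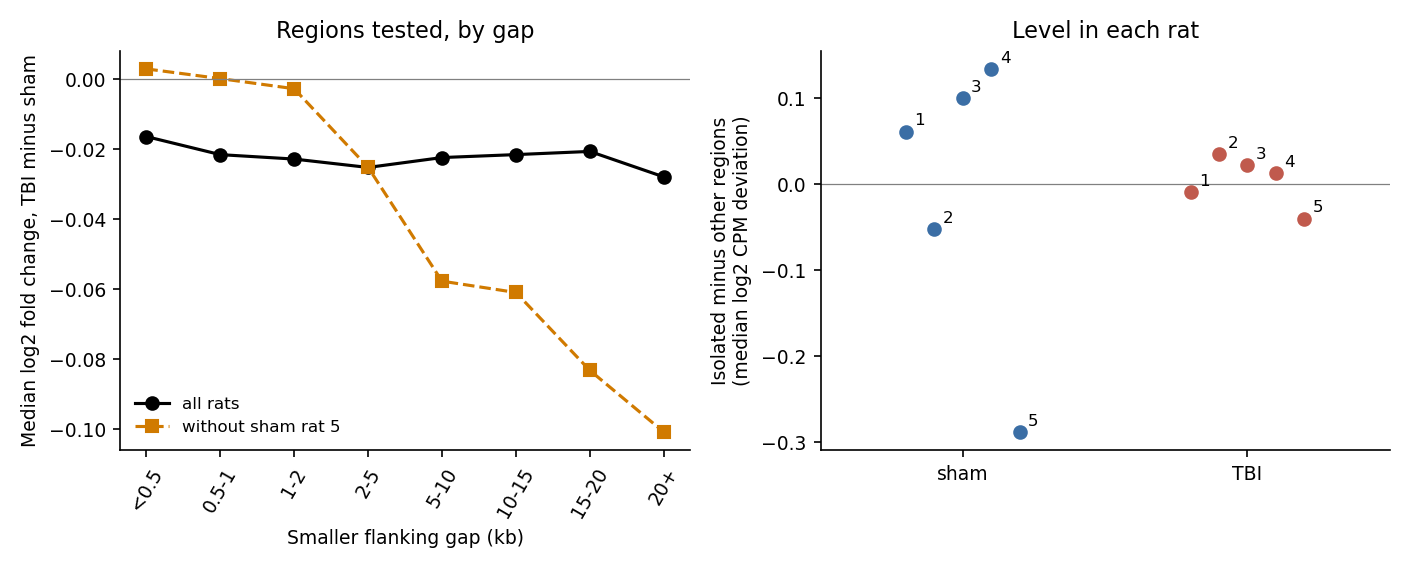
Left, median log2 fold change, TBI against sham, of tested autosomal regions by smaller flanking gap in kb, with all rats (black) and without sham rat 5 (orange). Right, level of isolated relative to other tested regions in each rat on the log2 scale with all rats, 1 circle per rat. The medians stay near -0.02 with all rats and fall to -0.10 without sham rat 5, which stands at -0.29 on the right.

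Where no filter on low tag sums was applied, 26 of 3729 isolated regions were called at an unadjusted p under 0.01 (0.697%), against 0.535% of all regions with tags. Of these, 3 were higher and 23 were lower in TBI, and the lower ones made up 0.617% of isolated regions and 0.443% of all. The regions added were those below 117 tags, of which sham rat 5 was the highest rat in 54.0%. Without both the filter and sham rat 5, a choice made after seeing the data, 32 of 3561 isolated regions were called (0.899%), against 0.77% of all. There were 6 higher and 26 lower in TBI.

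In that fit 2 isolated regions passed an adjusted p of 0.05 by edgeR's quasi-likelihood test, among 60 regions of the whole matrix. Both had too few tags for the filtered test, and both were chosen after their values were seen. At chr17:72450685-72451228, of 543 bp, sham rats 1 to 4 had 9, 14, 24 and 9 tags, and sham rat 5 had 0. TBI rat 4 had 6 tags and the other TBI rats had 0. The 4 sham rats of that fit were thus above every TBI rat, while the sham rat left out had 0 tags, as did 4 of the TBI rats. Its log2 fold change was -3.53 ± 0.63 (SE, adjusted p = 0.00151), and with all rats it was -3.18 with an adjusted p of 1.00 (unadjusted p = 0.00159).

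At chr3:139996889-139997172, of 283 bp, sham rats 1 to 5 had 21, 9, 22, 16 and 7 tags. TBI rats 1 to 5 had 10, 0, 0, 1 and 2 tags. TBI rat 1 lay within the range of the sham rats, and the other TBI rats were below every sham rat. Its log2 fold change without sham rat 5 was -2.76 ± 0.51 (SE, adjusted p = 0.00337). With all rats it was -2.50 with an adjusted p of 1.00 (unadjusted p = 0.000926), so that the adjusted call in both regions depended on leaving out sham rat 5.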

How the data were processed

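DNA of CA3 and dentate gyrus from each of 5 sham and 5 TBI rats was enriched for methylated fragments by methyl-binding protein capture and sequenced. The authors aligned reads to RN4 with BWA, compared the samples pair by pair with MACS to call regions and merged these with BEDTools. Their methods state that duplicate reads were removed. The deposited values are raw counts of tags per region and rat. At chr5:24497072-24497711, of 639 bp, sham rat 4 had 5021 tags, more than 1 read per start position and strand would give. The deposited counts may therefore hold duplicate reads, which was not tested. No scaling for depth was applied, and 0 other sample columns were present. Positions are printed as deposited; whether they count from 0 or 1 is not stated. No gene annotation or genome sequence of RN4 was used here. Libraries held 13597924 to 21672940 tags, which sets the counting error of each value.

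Groups came from the treatment labels, and rats were numbered from 1 to 5 within a group in the order of deposit, which pairs no rats. Gaps were measured between successive regions sorted by start, and no regions overlapped. The test of regions with a tag sum of at least 117 (50th percentile) was made in R 4.3.3 with edgeR 4.0.16 (TMM, trended dispersion, glmQLFit and glmQLFTest, no covariates), with Benjamini-Hochberg adjustment over all regions tested. P-values weigh the difference between the groups against the spread between these rats. Standard errors were derived from the F statistic, and intervals are Wilson intervals for counting error only. Summaries used Python 3.11.15, numpy 2.4.6 and pandas 2.3.3.

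Regions named were, among isolated regions, the 6 with the smallest unadjusted p in each direction, the 4 with the highest mean CPM, the 4 with the largest smaller gap, the 3 longest, up to 4 with the most rats at 0 tags among those with 20 or more tags in some rat, and the 2 nearest to the limit of 15000 bp on each side. The members, the rule and the lists were chosen with earlier results of these data known. Alternatives were DESeq2 1.42.0 (size factors and Wald test), total tags alone, edgeR's likelihood ratio and exact tests, a minimum of 10 tags in every rat, no filter beyond 1 tag, gaps of 10000 and 20000 bp, tags of tested autosomal regions as the denominator of the share, and leaving out each rat. Chosen after seeing the data were the adjusted deviance form of the test and shares without the 3 strongest regions, without regions of 1000 tags or more, and without the 3 strongest regions and sham rat 5 together, and the test with neither the filter nor sham rat 5.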

Additional observations from a re-analysis of the deposited data

Results flagged for a closer look

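In 60 sets of 5 rats, made of 26 named regions and 4 library measures in each group, 6 held a rat far from the other 4, and chance gives about 3. At chr1:106109045-106109779, TBI rat 1 stood low at 0.867 CPM, with the next TBI rat at 1.26 CPM. Sham rat 5 alone had tags at chr13:4936357-4936903 (2.1 CPM), chr9:65530274-65530631 (1.9 CPM), chr13:2464749-2465240 (1.49 CPM) and chr13:27640859-27641153 (1.36 CPM), and these 4 were named because most rats were at 0 there. Sham rat 5 also had the highest CPM in 40.6% of isolated regions, with the next sham rat at 9.84%.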

How the results depend on the processing

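At an unadjusted p under 0.01, 3 of 1024 isolated regions were called (0.293%, against 0.266% of all tested regions). The count was 26 of 3729 with no filter on low tags (0.697%, against 0.535% of all). With no filter and sham rat 5 left out it was 32 of 3561 (0.899%, against 0.77%). It was 5 with edgeR's likelihood ratio test (0.488%, against 0.424%) and 1 with the Wald test of DESeq2 (0.0977%, against 0.245%). At a gap of 10000 bp it was 8 of 2536 (0.315%, against 0.266% of all). At 20000 bp it was 0 of 499 (edgeR's quasi-likelihood test, 10 at an unadjusted p under 0.05). Leaving out single rats gave 0 to 13. The count was 0 without sham rat 2 (21 at an unadjusted p under 0.05 by edgeR) or TBI rat 3 (15). In these fits 0.214% and 0.171% of all regions were called. It was 1 without TBI rat 4 or TBI rat 5 (0.0964% and 0.0957%, against 0.178% and 0.263% of all). It was 8 without sham rat 4 (0.806%, against 0.727%) and 13 without sham rat 5 (1.17%, against 0.792%). Another 9 of 21 counts were within 1.5 times of 3. The median log2 fold change was -0.18 with no filter, where that of all regions was -0.07, and -0.09 to 0.02 when single rats were left out. The number of isolated regions was 9228 at 10000 bp and 1813 at 20000 bp. The ratio of shares, TBI to sham, was 0.993 when only tested autosomal regions were counted. Of 275 fold changes of named regions, 266 kept their direction. At chr1:63765998-63766696 leaving out single rats gave -0.14 to 0.40, below 0 without sham rat 5, TBI rat 1 or TBI rat 5. At chr1:31989030-31997808 it was 0.0102 with total tags alone, 0.00257 with no filter and -0.17 to 0.0904 when single rats were left out. The 12 regions chosen for their small p kept their direction in all 203 fits in which they passed the tag filter. They were chosen by direction on these same counts, so that a kept direction is no separate support for them. The cause of the differences between settings was not tested. No paired analysis was possible because the labels give no rat number that occurs in both groups. A rat had a median of 20 tags in a tested isolated region, and 2724 were not tested.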
